A study of Mus musculus with 10 samples.

Results

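The genes described are the 8 sarcomeric myosin heavy chains *Myh1*, *Myh2*, *Myh3*, *Myh4*, *Myh6*, *Myh7*, *Myh7b* and *Myh8*, taken by symbol from the 49315 genes of the count table, and all 8 were found. RNA was from the gastrocnemius of 10 male C57BL6J mice, 5 AHRfl and 5 AHRmko. By the study's methods, red portions of this muscle were cut out for fibre bundles. The rest was used to isolate mitochondria or was frozen. Which portions gave the RNA is not stated, and the part of dissection in the levels below was not tested. AHRfl mice carried floxed *Ahr* alleles, and *Ahr* encodes the aryl hydrocarbon receptor, which binds components of smoke. AHRmko mice carried the same floxed alleles and a tamoxifen-inducible Cre under the human skeletal actin (*ACTA1*) promoter, which is active in muscle fibres and not in the other cells of the muscle. All mice of both groups had been exposed to cigarette smoke for 16 weeks, on 5 days per week in 2 daily sessions of 1 h, at 220 ± 80 mg/m3. Smoke began 4 weeks after the last tamoxifen injection by the sample labels (the methods text gives another interval), and muscle was taken 72 h after the last exposure, for which the study's text also gives a wider range. No air-exposed mice were among the libraries, so the comparison is between genotypes under smoke alone. Neither the age of the mice nor their litters are in the labels.

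Myosin heavy chains are the motor proteins of the thick filament, and the isoform a fibre makes largely sets its speed of contraction and its use of energy. In adult mouse limb muscle, *Myh4* encodes the chain of fast IIB fibres, *Myh1* that of IIX, *Myh2* that of IIA and *Myh7* that of slow type I fibres. *Myh3* and *Myh8* encode the embryonic and perinatal chains, *Myh6* the alpha chain of the heart, and *Myh7b* an ancient slow-type gene whose RNA is better known than its protein.

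On GRCm38, 5 of the genes form 1 cluster on chromosome 11, all on the plus strand, in the order *Myh3* (67078300 to 67102291), *Myh2* (67171027 to 67197517), *Myh1* (67200052 to 67224575), *Myh4* (67238029 to 67260446) and *Myh8* (67277124 to 67308634). On the minus strand of chromosome 14, *Myh6* (54941921 to 54966927) lies beside *Myh7* (54970684 to 54994626). *Myh7b* stands alone on the plus strand of chromosome 2 (155611212 to 155634307).

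The 3 genes outside the cluster each carry a microRNA in an intron, and these are shown because their seeds are nearly the same. Sequences are from RefSeq on GRCm38.p6, written 5′ to 3′, with the seed (bases 2 to 8) in capitals. The first is in intron 29 of *Myh6* (chr14:54949072-54949093, minus strand), the second in intron 31 of *Myh7* (chr14:54975710-54975731, minus strand) and the third in intron 19 of *Myh7b* (chr2:155622893-155622913, plus strand).
miR-208a-3p: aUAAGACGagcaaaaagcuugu
miR-208b-3p: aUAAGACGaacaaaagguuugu
miR-499-5p: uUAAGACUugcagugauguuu
The seeds of miR-208a-3p and miR-208b-3p were equal in 7 of 7 bases, and that of miR-499-5p matched each of them in 6 of 7. Their hairpins had at most 1 count in any mouse in these poly(A)-selected libraries, which do not measure mature microRNAs.

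Promoters are shown for the genes that moved together between mice (*Myh1* with *Myh2*, and *Myh7*, *Myh7b*, *Myh6* and *Myh3*) and for *Myh4*, the most abundant. Each run is 300 bases, from 250 before to 50 after a RefSeq start site on GRCm38.p6, on the gene's own strand and 5′ to 3′. Capitals mark matches to MEF2, to MCAT (CATTCC) and to the TATA box (TATAAA). For *Myh7*, RefSeq gives another start site downstream, whose window overlaps the one shown. That other window has 0 MCAT matches, whereas the run shown has 1, at 201 bases before its start site. MEF2 and MCAT were searched on both strands and the TATA box on the gene's strand alone.
Myh4, chr11:67237562-67237861, plus strand: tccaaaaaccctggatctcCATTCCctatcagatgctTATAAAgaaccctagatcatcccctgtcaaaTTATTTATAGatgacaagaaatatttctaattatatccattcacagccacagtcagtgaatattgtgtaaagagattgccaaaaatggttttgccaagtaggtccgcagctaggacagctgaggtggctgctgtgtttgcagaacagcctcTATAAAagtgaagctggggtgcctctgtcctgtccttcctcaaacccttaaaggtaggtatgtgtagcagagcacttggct
Myh1, chr11:67199852-67200151, plus strand: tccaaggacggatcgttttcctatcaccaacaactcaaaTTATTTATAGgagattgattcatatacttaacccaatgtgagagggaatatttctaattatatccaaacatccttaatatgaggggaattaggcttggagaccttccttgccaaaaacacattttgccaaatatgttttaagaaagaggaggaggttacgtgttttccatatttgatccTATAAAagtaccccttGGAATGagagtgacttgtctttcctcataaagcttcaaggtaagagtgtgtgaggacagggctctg
Myh2, chr11:67170777-67171076, plus strand: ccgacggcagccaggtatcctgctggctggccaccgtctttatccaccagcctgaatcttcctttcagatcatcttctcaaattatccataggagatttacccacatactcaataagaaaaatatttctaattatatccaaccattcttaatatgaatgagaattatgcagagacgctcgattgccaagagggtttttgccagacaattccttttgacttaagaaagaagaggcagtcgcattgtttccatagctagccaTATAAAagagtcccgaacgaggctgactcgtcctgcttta
Myh7, chr14:54994577-54994876, minus strand: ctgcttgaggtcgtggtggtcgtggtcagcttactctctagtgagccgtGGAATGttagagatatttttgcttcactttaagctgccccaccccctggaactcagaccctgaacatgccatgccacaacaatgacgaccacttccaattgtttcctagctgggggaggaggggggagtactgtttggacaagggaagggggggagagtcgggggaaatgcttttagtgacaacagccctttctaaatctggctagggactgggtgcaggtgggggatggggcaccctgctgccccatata
Myh7b, chr2:155610993-155611292, plus strand: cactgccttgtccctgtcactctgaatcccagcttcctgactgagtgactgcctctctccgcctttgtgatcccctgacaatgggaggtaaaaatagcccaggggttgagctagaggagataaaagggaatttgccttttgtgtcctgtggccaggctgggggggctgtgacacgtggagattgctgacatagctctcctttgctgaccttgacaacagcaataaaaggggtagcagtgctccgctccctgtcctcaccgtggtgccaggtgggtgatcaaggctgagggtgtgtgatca
Myh6, chr14:54966558-54966857, minus strand: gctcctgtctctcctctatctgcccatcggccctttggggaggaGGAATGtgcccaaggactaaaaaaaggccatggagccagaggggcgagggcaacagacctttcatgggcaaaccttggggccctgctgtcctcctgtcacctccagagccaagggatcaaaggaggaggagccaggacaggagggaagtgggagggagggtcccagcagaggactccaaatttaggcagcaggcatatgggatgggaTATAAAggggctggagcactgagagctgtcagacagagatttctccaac
Myh3, chr11:67078050-67078349, plus strand: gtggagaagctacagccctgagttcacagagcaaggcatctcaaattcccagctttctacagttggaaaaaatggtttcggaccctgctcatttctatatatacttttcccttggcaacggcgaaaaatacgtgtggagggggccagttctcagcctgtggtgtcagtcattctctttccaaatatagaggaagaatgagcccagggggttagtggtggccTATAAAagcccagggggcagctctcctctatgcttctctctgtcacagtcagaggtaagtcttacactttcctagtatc
The MEF2 match of *Myh1* and *Myh4*, TTATTTATAG, was also in the *Myh8* promoter, 99 bases before its start site. MEF2 matches were in 3.19% of 32841 promoters of this length, TATAAA in 8.32% and MCAT in 14.7%. The longest run that the *Myh1*, *Myh2*, *Myh4* and *Myh8* promoters had in common, ttctaattatatcc, was 14 bases long and in 4 of the 32841 promoters, which were these 4. Such matches are letters in a window and not measured binding sites.

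Total counts per library were between 30393035 and 37954388, and no 2 libraries held identical counts. The 8 genes took between 5.20% and 6.47% of all counts of a mouse. Skeletal muscle markers were high in every mouse, whereas the heart marker *Myl7* had 0 counts in all of them and *Nppa* between 1 and 9. *Ahr* had between 43 and 110 counts in AHRfl and between 31 and 80 in AHRmko mice. The counts sum all its exons, of which the floxed exon is a small part, so they do not check the deletion. *Xist*, a transcript of female cells, had between 44 and 75 counts in 5 libraries (3 AHRfl and 2 AHRmko) and at most 3 in the other 5, while the Y-linked genes were high in all 10. This divides the libraries in a way that the labels do not explain.

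Levels per length were highest for the 3 fast chains *Myh4*, *Myh1* and *Myh2*. On the scale of RPKM (reads per kilobase of exon, scaled to the normalized library size), the median over 10 mice was 8824 for *Myh4*, 450.3 for *Myh1*, 295 for *Myh2* and 10.1 for *Myh7*. The medians of *Myh8*, *Myh3*, *Myh7b* and *Myh6* were 1.79, 0.867, 0.392 and 0.0969 RPKM. *Myh4* was above *Myh1* in all 10 mice and the ranges of the 2 genes did not overlap. Every other pair of neighbours in the order overlapped in range on this scale. Within a mouse, *Myh1* was above *Myh2* in 9 of 10 mice, *Myh2* above *Myh7* in 10, *Myh7* above *Myh8* in 6, *Myh8* above *Myh3* in 8, *Myh3* above *Myh7b* in 8 and *Myh7b* above *Myh6* in 10. The mouse in which *Myh2* exceeded *Myh1* was AHRfl 33, with a ratio of 1.22 between their RPKM. These values divide by the merged exons of all transcripts of a gene, which for *Myh8* are 11772 bases beside 6149 in its longest transcript. With the longest transcript the order of the medians was the same, but the median of *Myh8* was 3.42 RPKM, and *Myh8* was above *Myh3* in 10 of 10 mice with ranges that did not overlap (3.05 to 4.30 and 0.310 to 2.04 RPKM). *Myh2* then exceeded *Myh1* in AHRfl 15 too, with ratios of 1.07 there and 1.37 in AHRfl 33, and *Myh3* was above *Myh7b* in 7 mice.

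**Figure D1:**
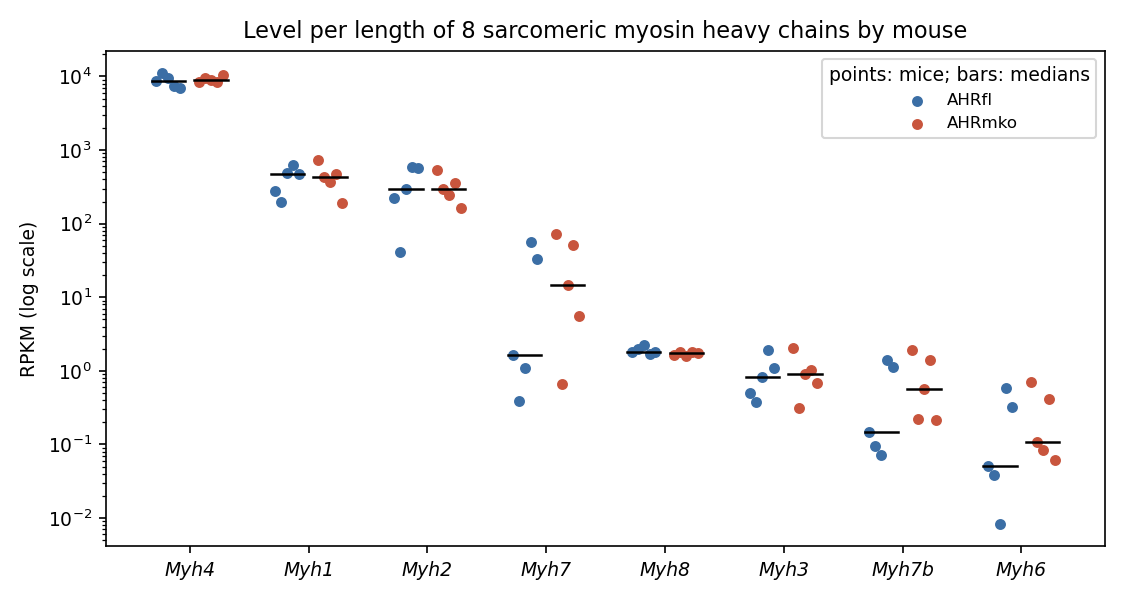
RPKM of the 8 genes on a log axis, 1 point per mouse (blue AHRfl, red AHRmko) and a bar at the median of each genotype. The points of *Myh4* and *Myh8* lie close together, those of *Myh7* run from 0.385 to 73.3 RPKM, and the genotypes overlap in every gene.

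*Myh4* made up 91.3 ± 5.34% (SD, n = 5) of the summed RPKM of the 8 genes in AHRfl and 91.9 ± 3.96% (SD, n = 5) in AHRmko mice. *Myh1* held 4.51 ± 2.17% and 4.51 ± 2.15% (SD, n = 5 each). *Myh2* held 3.94 ± 2.97% in AHRfl and 3.25 ± 1.495% in AHRmko mice (SD, n = 5 each). The slow chain *Myh7* was a small part of the whole, from 0.00341% in AHRfl 12 to 0.758% in AHRmko 8. In every one of these 4 genes the means of the genotypes differed by less than 1 SD. In bulk RNA, fewer fibres of a type and less RNA per fibre cannot be told apart.

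**Figure D2:**
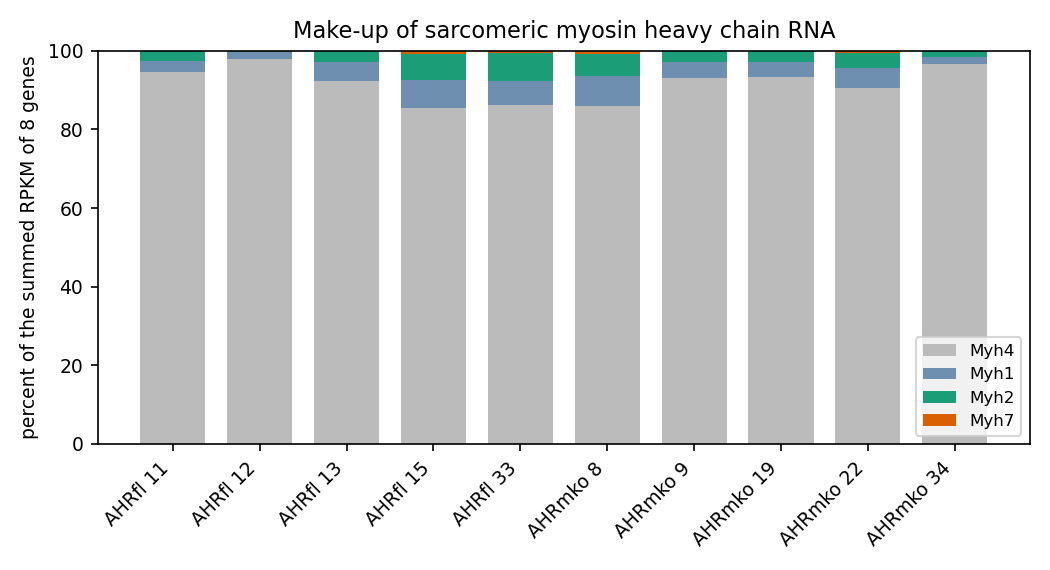
Share of *Myh4*, *Myh1*, *Myh2* and *Myh7* in the summed RPKM of the 8 genes, 1 bar per mouse. *Myh4* takes between 85.4% (AHRfl 15) and 97.9% (AHRfl 12), and AHRfl 15, AHRfl 33 and AHRmko 8 have the lowest *Myh4* shares.

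For the genotype comparison, edgeR's quasi-likelihood test was run on 14714 genes, and all 8 myosin heavy chains were among them. None of the 8 had an adjusted p under 0.05 (adjusted p from 0.815 to 0.993 by edgeR) and 0 had an unadjusted p under 0.05. Of all genes tested, 0.0068% had an adjusted p under 0.05, which was 1 gene, and 6.61% an unadjusted p under 0.05. DESeq2's Wald test also called 0 of the 8. The groups overlapped in all 8, and did not overlap in 1.4% of all genes tested. The log2 fold change, AHRmko against AHRfl, was above 0 in 6 genes and below 0 in 2, with a median of 0.09 beside 0.01 for all genes tested. What the intervals allow differed widely between genes.

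The values of single mice are given as CPM, counts scaled to the normalized library size, and compare mice within a gene. *Myh4*, the IIB chain, was at 52666, 66541, 56950, 44931 and 41411 CPM in AHRfl mice 11, 12, 13, 15 and 33. In AHRmko mice 8, 9, 19, 22 and 34 it was at 50033, 57712, 53503, 50926 and 63948 CPM. The AHRmko mice lay within the range of the AHRfl mice. *Myh4* differed by 0.07 ± 0.130 (SE) on the log2 scale, AHRmko against AHRfl, with an edgeR adjusted p of 0.953. Its 95% interval ran from -0.21 to 0.35, or from 0.866-fold to 1.28-fold, and without AHRfl 33 the difference was -0.0015.

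*Myh1*, the IIX chain, was at 1768, 1251, 3107, 3944 and 3016 CPM in AHRfl mice in the same order. It was at 4726, 2710, 2353, 3011 and 1230 CPM in AHRmko mice. Its highest and its lowest mouse, AHRmko 8 and AHRmko 34, were of 1 genotype. *Myh1* differed by 0.10 ± 0.397 (SE) in log2, within a 95% interval from -0.80 to 1.00 (edgeR adjusted p = 0.981). The value turned to -0.17 without AHRmko 8, -0.01 without AHRfl 11 and -0.08 without AHRfl 12.

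*Myh2*, the IIA chain, was at 1612, 297, 2084, 4218 and 4135 CPM in AHRfl mice. It was at 3793, 2127, 1772, 2518 and 1173 CPM in AHRmko mice. AHRfl 12 stood lowest. AHRfl mice differed among themselves by up to 14.2-fold, and by 2.62-fold without AHRfl 12, beside 3.23-fold in AHRmko mice. In log2, *Myh2* differed by -0.12 ± 0.632 (SE), within a 95% interval from -1.56 to 1.33 (edgeR adjusted p = 0.988). The value was 0.16 without AHRfl 15, 0.15 without AHRfl 33, 0.05 without AHRmko 34 and -0.41 without AHRfl 12.

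*Myh7*, the slow chain, was at 14.3, 3.32, 9.34, 489 and 285 CPM in AHRfl mice. It was at 631, 5.70, 127, 441 and 48.1 CPM in AHRmko mice. Both genotypes held mice with high and mice with low values. In CPM the highest mouse was 190.4-fold above the lowest (110.8-fold without AHRfl 12), and their raw counts were 24041 and 115. On the log2 scale *Myh7* differed by 0.64 ± 1.55 (SE), with an edgeR adjusted p of 0.965. Its 95% interval, -2.91 to 4.20, leaves room for a difference from 0.133-fold to 18.3-fold. Without AHRmko 8 the value was -0.05, and without AHRfl 15 it was 1.68. *Myh7* ran from 5.70 to 489 CPM (median 285) in the 5 libraries with *Xist* counts over 40 and from 3.32 to 631 CPM (median 48.1) in the other 5, so that the ranges overlapped nearly throughout. With this division of the libraries (over 40 counts or not) as a covariate, chosen after seeing the data, the log2 fold change was 2.47 (adjusted p = 0.849 by edgeR).

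*Myh7b* was at 0.967, 0.634, 0.480, 9.44 and 7.51 CPM in AHRfl mice. It was at 12.9, 1.47, 3.74, 9.28 and 1.41 CPM in AHRmko mice. The 4 mice with the most *Myh7* also had the most *Myh7b*. *Myh7b* differed by 0.61 ± 0.999 (SE) in log2, within a 95% interval from -1.67 to 2.89 (edgeR adjusted p = 0.949). It ranged from 0.07 without AHRmko 8 to 1.28 without AHRfl 15.

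*Myh6*, the cardiac alpha chain, was rare, with 12, 9, 2, 138 and 71 counts in AHRfl mice. It had 179, 27, 20, 107 and 14 counts in AHRmko mice. The 4 mice that led in *Myh7* led here too. In log2, *Myh6* differed by 0.45 ± 1.03 (SE), within a 95% interval from -1.88 to 2.79 (edgeR adjusted p = 0.964), and by -0.25 without AHRmko 8 and 1.40 without AHRfl 15. AHRfl 13 had 2 counts, under the floor of 3 counts read as a signal here, which covers counting error only. For every 100 *Myh7* counts there were between 0.451 and 12.9 of *Myh6*, and the highest ratios were in AHRmko 9 and AHRfl 12, where *Myh7* was lowest. Of the 100-base windows of the *Myh6* transcript, 11.4% also occurred in *Myh7*, and only uniquely mapped reads were counted. The part of this sharing in the counts was not tested.

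*Myh3*, the embryonic chain, was at 3.04, 2.31, 4.94, 11.8 and 6.71 CPM in AHRfl mice. It was at 12.3, 1.87, 5.57, 6.26 and 4.16 CPM in AHRmko mice. The highest mouse of each genotype was the one that was highest in *Myh7*. *Myh3* differed by 0.07 ± 0.556 (SE) in log2, within a 95% interval from -1.18 to 1.33 (edgeR adjusted p = 0.993). Without AHRmko 8 it was -0.36, without AHRfl 12 -0.13, without AHRfl 11 -0.09 and without AHRfl 15 0.51.

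*Myh8*, the perinatal chain, was the steadiest, at 21.2, 23.4, 26.4, 19.9 and 20.96 CPM in AHRfl mice. It was at 19.6, 21.1, 18.8, 21.5 and 20.9 CPM in AHRmko mice. The highest mouse was 1.41-fold above the lowest. *Myh8* differed by -0.14 ± 0.0822 (SE) in log2, within a 95% interval from -0.31 to 0.04. Its edgeR adjusted p of 0.815 was the lowest of the 8 genes, and a two-sided exact permutation test gave p = 0.143. Without AHRfl 13 the difference was -0.07.

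**Figure D3:**
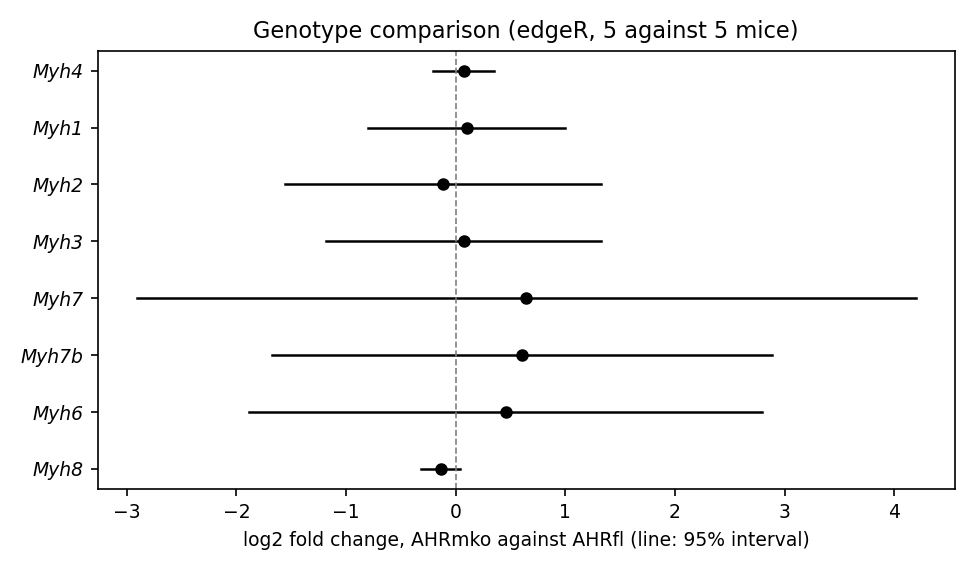
Log2 fold change of each gene, AHRmko against AHRfl (point), with its 95% interval (line), from edgeR with 5 mice per genotype. Every interval includes 0, and the interval of *Myh7* is the widest, from -2.91 to 4.20.

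The spread between mice of 1 genotype was measured as the SD of log2 CPM, pooled over both genotypes. For *Myh7* it was 2.96, and 0 of the 14714 genes tested had a larger one. *Myh6* was exceeded by 9 genes, *Myh7b* by 15 and *Myh2* by 64. *Myh3* and *Myh1* stood at the 98.7 and 95.5 percentiles, *Myh4* at 51.8 and *Myh8* at 25.6. Many slow sarcomere genes outside the family also had a large spread. The median percentile of 15 listed slow genes was 99.4, from 99.99 for *Tnnc1* down to 63.5 for *Pln* and 44.5 for *Myl6b*.

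**Figure D4:**
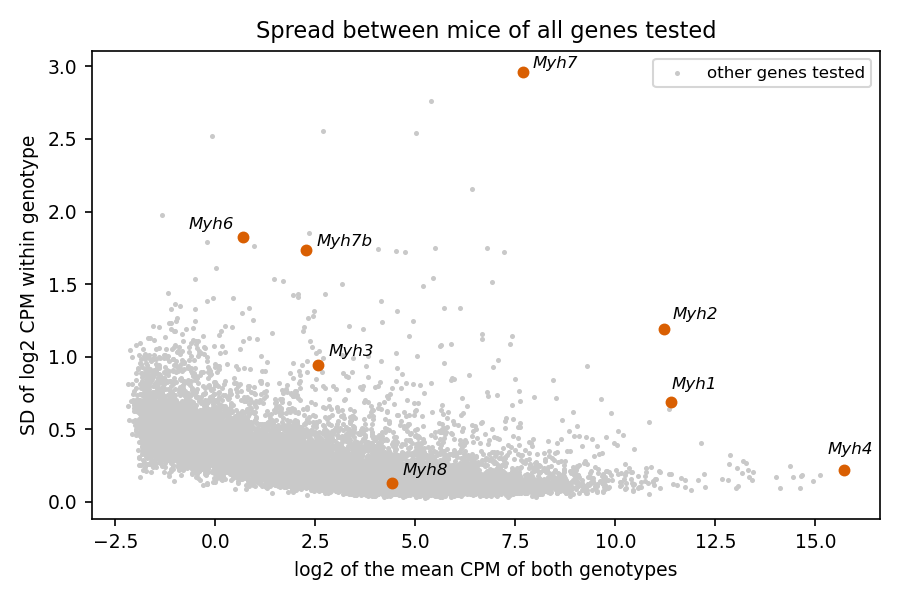
SD of log2 CPM within genotype against the log2 of the mean CPM for all 14714 genes tested (grey), with the 8 genes in orange. *Myh7* has the highest SD of all (2.96), and *Myh8* (0.128) lies among the bulk of genes.

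Across mice, many of the genes moved together, in some pairs alike in both genotypes. Correlations of log2 CPM over the 10 mice are given as a description, since the points share library and depth. Pearson's r was 0.95 between *Myh7* and *Myh7b* (Spearman's rho 0.90) and 0.97 and 0.91 within AHRfl and AHRmko mice. It was 0.96 between *Myh6* and *Myh7b*, 0.85 between *Myh6* and *Myh7* and 0.90 between *Myh3* and *Myh7*. *Myh6* and *Myh7b* lie on different chromosomes and their transcripts had 0 windows of 100 bases in common. *Myh1* and *Myh2* had r = 0.85, and 0.81 without the 2 mice farthest from the median. Of the 100-base windows of each of these 2 transcripts, 7.59% also occurred in the other. The part of this sharing in their r was not tested. *Myh4* had a negative r to 6 of the other 7 genes, with -0.85 to *Myh2*, -0.74 to *Myh7* and -0.73 to *Myh1*, of which the last was -0.35 without the 2 farthest mice. To *Myh8* its r was 0.40. Some pairs had a different r in AHRfl and AHRmko mice, such as *Myh6* with *Myh8* (-0.89 and 0.03) and *Myh1* with *Myh3* (0.95 and 0.50). These differences were not tested. *Myh2* and *Myh7* had r = 0.73 (0.85 in AHRfl and 0.52 in AHRmko mice) and did not always move together. AHRmko 9 and AHRfl 13 had 5.70 and 9.34 CPM of *Myh7*, among the 3 lowest, with 2127 and 2084 CPM of *Myh2*, in the middle of its range.

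**Figure D5:**
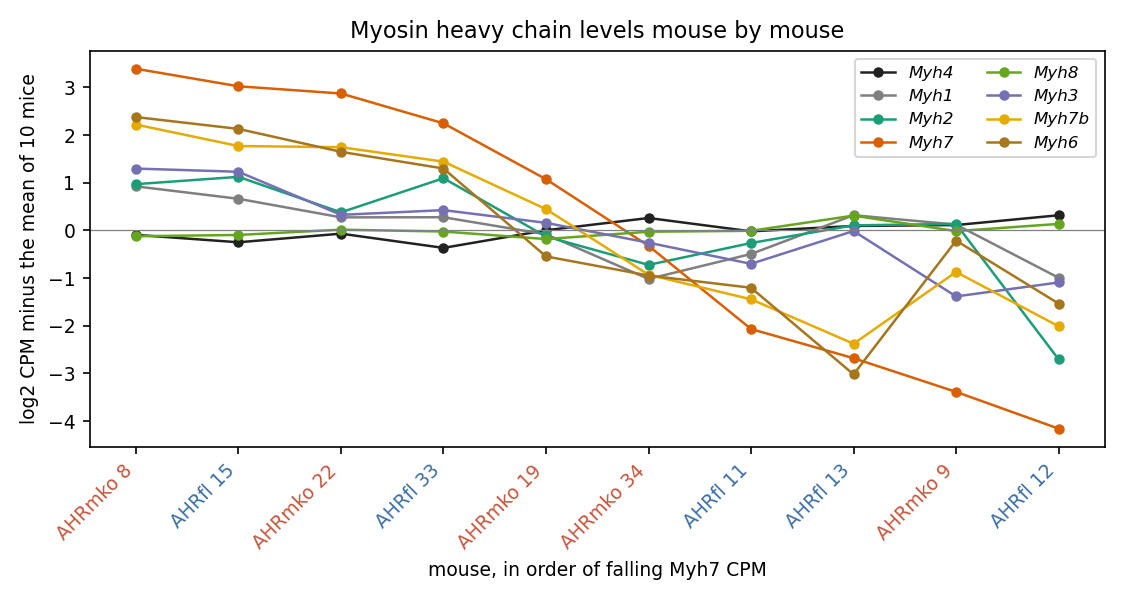
Log2 CPM of each gene minus its mean over 10 mice, with mice in order of falling *Myh7* CPM (labels blue for AHRfl, red for AHRmko). *Myh7*, *Myh7b*, *Myh6* and *Myh3* are high in AHRmko 8, AHRfl 15, AHRmko 22 and AHRfl 33, whereas *Myh8* is nearly flat.

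For each member, the 3 genes outside the family with the highest r were looked up. For *Myh7* they were *Tnni1* (r = 0.9975, 1.21 to 84.5 CPM) and *Tnnc1* (r = 0.9955, 0.865 to 108.7 CPM), which encode slow troponin I and the slow and cardiac troponin C, and the unnamed transcript *Gm34302*. For *Myh7b* they included *Gm45203* and *Tpm3* (r = 0.97), the slow tropomyosin, and for *Myh6* they were *Myl10* (r = 0.96), a myosin light chain, *Ifitm2* and *Fbln1*. For *Myh2* they were *Iqsec2* (r = 0.99), *Esrrb* (r = 0.99), an orphan nuclear receptor, and *Tax1bp3*. For *Myh1* they were *Galt* (r = 0.98), *Lrrn1* and *Myhas* (r = 0.95), and for *Myh4* *Phka1* (r = 0.98), a subunit of phosphorylase kinase of muscle, *Gm10851* and *Mia3*. For *Myh3* they were *Gsto1* (r = 0.94), *Helt* and *Zfp385b*. For *Myh8* they were *Psme2b* (r = 0.88), *Psd3* and *Lrp3*, and 0 of 14706 genes had an r over 0.9 to it, beside 148 for *Myh2* and 37 for *Myh7*.

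Other genes of the sarcomere and its control were read from lists. Of 15 slow sarcomere and slow fibre genes, 10 (66.7%) had an r over 0.7 to *Myh7*, beside 4.80% of all other genes tested. *Tnnt1*, slow troponin T, had r = 0.98 and *Atp2a2*, the slow calcium pump, r = 0.95, whereas *Sln*, sarcolipin, had r = -0.37. Likeness in this list was not to *Myh7* alone. *Myl2*, *Myl3*, *Casq2* and *Myoz2*, which are counted as slow genes, had a higher r to *Myh2* (0.96, 0.96, 0.96 and 0.98) than to *Myh7* (0.87, 0.86, 0.78 and 0.79). *Mb*, *Cd36* and *Fabp3* also had a higher r to *Myh2* (0.91, 0.89 and 0.86) than to *Myh7* (0.60, 0.69 and 0.76). The other slow genes had a higher r to *Myh7*. Of these, *Tnnt1*, *Tnni1*, *Tnnc1*, *Tpm3* and *Atp2a2* had 0.83, 0.72, 0.73, 0.66 and 0.80 to *Myh2*. Of 15 fast genes, 0 had an r over 0.7 to *Myh7* and 0 had one under -0.7. Their r ran from -0.68 (*Mybpc2*) to -0.32 (*Atp2a1*), with a median of -0.49 beside 0.01 for all other genes tested.

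Between genotypes, 0 genes of any of the 6 lists had an adjusted p under 0.05 in edgeR, in either direction. The median log2 fold change was 0.10 for the 15 slow genes, 0.06 for the 15 fast genes and -0.01 for the 21 fibre type regulators, beside 0.01 for all genes tested. With each mouse left out, the median of the slow genes ran from -0.17 (without AHRmko 8) to 0.48 (without AHRfl 15). That of the fast genes ran from -0.0023 (without AHRfl 33) to 0.15 (without AHRfl 12), and that of the regulators from -0.05 (without AHRmko 34) to 0.02 (without AHRmko 22). The median was 0.04 for the 15 genes of myosin folding, thick filament and turnover and 0.06 for the 5 tested of 6 other class II myosin heavy chains, and with mice left out these ran from 0.0027 (without AHRfl 13) to 0.10 (without AHRfl 33) and from -0.13 (without AHRmko 8) to 0.18 (without AHRmko 34). It was 0.33 for the 10 tested of 13 developmental, denervation and regeneration genes, of which 4 had an unadjusted p under 0.05, where 6.61% of all genes tested had one. Of these 4, *Myod1*, *Chrna1* and *Actc1*, cardiac actin (1.09), were higher in AHRmko mice and *Myl4*, the embryonic light chain (-0.52), was lower. In the slow list 0 genes had an unadjusted p under 0.05, and in each of the other 4 lists 1 gene had.

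For each list, the pair of genes with the smallest p is given by log2 fold change. Among developmental genes these were *Myod1*, the myogenic factor (0.59, adjusted p = 0.606 by edgeR), and *Chrna1*, the acetylcholine receptor alpha subunit (0.22, adjusted p = 0.665 by edgeR). Among folding and turnover genes they were *Trim55* (0.26, adjusted p = 0.606 by edgeR), a ubiquitin ligase of the sarcomere, and *Unc45b* (0.20), the myosin chaperone. The fast genes *Gpd1* and *Atp2a1* had 0.25 and 0.21, the slow genes *Sln* and *Mb* -0.48 and -0.33, and the regulators *Nfatc1* and *Sox6* -0.27 and 0.12. The non-muscle myosins *Myh14* and *Myh9* had -0.24 and 0.20. None passed the test over all genes.

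The cluster on chromosome 11 also holds transcripts of the other strand. *Myhas* runs from 67211256 to 67237573 and overlaps *Myh1* up to the end of that gene at 67224575. *Myhas* was at 8.80 ± 1.80 CPM (SD, n = 5) in AHRfl and 9.46 ± 2.82 CPM (SD, n = 5) in AHRmko mice. Its r to *Myh1* was 0.95. By the study's text strand was used in counting if the library kept it, and whether these libraries did is not given in the sources used here, so reads of *Myh1* and of this antisense gene may not be told apart. *9430073C21Rik*, which overlaps *Myh2*, had between 6 and 131 counts, and the 131 were in AHRmko 22. *2310065F04Rik*, between *Myh3* and *Myh2*, overlaps neither, and differed by 0.19 ± 0.0997 (SE) in log2 (edgeR adjusted p = 0.787). *Mhrt*, antisense to *Myh7*, had at most 6 counts in a mouse.

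Markers of other cells were read beside *Myh7*, the gene with the largest spread. The 3 macrophage markers *Adgre1*, *Cd68* and *Csf1r* were detected in every mouse, summed to between 5.05 and 9.43 CPM in AHRfl and between 4.37 and 11.5 CPM in AHRmko mice, and had r = 0.87 to *Myh7*. The 3 markers of fibro-adipogenic cells had r = 0.65. The sets for satellite cells, erythroid cells, endothelium, heart and smooth muscle had 0.45, 0.44, 0.42, 0.37 and 0.26. Those for adipocytes and Schwann cells had -0.36 and -0.38. The skeletal muscle set had -0.58, but it includes *Myh4*, which by itself had r = -0.74 to *Myh7*. The set of sex-linked genes had -0.69, but it adds *Xist* to the more abundant Y-linked genes and so does not measure sex. The part of other cells in the spread of *Myh7* was not tested. The summed level of the 4 heart markers was between 0.142 and 0.649 CPM in AHRfl and between 0.150 and 0.368 CPM in AHRmko mice, with *Myl7* at 0 throughout.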

How the data were processed

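RNA of gastrocnemius tissue from 10 mice was sequenced. The authors used Trimmomatic 0.36 for trimming and STAR 2.5.2b for alignment to GRCm38, and deposited raw counts of unique exonic reads per Ensembl gene. Counting used strand if the libraries were stranded, and whether they were, and the Ensembl release, are not given in the sources used here. Names, positions and lengths came from GENCODE M21, which held 49056 of 49315 identifiers (99.5%).

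Counts were tested with edgeR 4.0.16 in R 4.3.3 (filterByExpr, minimum count 10, minimum total 15, TMM, robust quasi-likelihood fit, Benjamini-Hochberg adjustment). Log2 CPM used a prior count of 2. A two-sided exact permutation test over 252 assignments was run for each member (smallest p 0.00794). Fits were tested on simulated data, and the outcome is not reported here. Total counts (30393035 to 37954388) set the floor of 3 counts at 0.0790 to 0.0987 CPM.

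Alternatives were DESeq2 1.42.0, limma-voom (3.58.1), 3 scalings, 2 filters, no robust estimation, 1 surrogate variable (sva 3.50.0) and leaving out each mouse. After seeing the data, 2 were added, the presence of over 40 *Xist* counts as a covariate and DESeq2 with its filtering tuned at 0.05. Named were the 8 members, the 3 genes most correlated with each, neighbouring and overlapping genes, and from each list the 2 with the smallest p. The genes and lists were chosen with earlier results of these data known, and a few list members were named after their values were seen. Protein sequences were not used here. A gene that the rule names is not reported here.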

Additional observations from a re-analysis of the deposited data

How the results depend on the processing

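Under 9 planned and 2 added alternatives and with each of 10 mice left out, 0 of the 8 genes had an adjusted p under 0.05, and of 167 log2 fold changes 16 changed sign. The signs of *Myh7b* and *Myh8* held throughout. With 1 surrogate variable *Myh1* was at -0.11 and *Myh3* at -0.060, and *Myh2* was at 0.25 with limma-voom and 0.20 with the presence of over 40 *Xist* counts as a covariate. limma-voom moved *Myh7* from 0.64 to 1.47, *Myh6* from 0.45 to 1.15 and *Myh7b* from 0.61 to 1.14, 1 surrogate variable moved *Myh7* to 1.29, *Myh4* from 0.07 to 0.14 and *Myh6* to 0.27, and the *Xist* covariate moved *Myh7* to 2.47, *Myh7b* to 1.32, *Myh6* to 1.12, *Myh1* from 0.10 to 0.16 and *Myh4* to 0.04. With mice left out, *Myh1* ranged from -0.17 to 0.30, *Myh2* from -0.41 to 0.16, *Myh3* from -0.36 to 0.51, *Myh4* from -0.0015 to 0.17, *Myh6* from -0.25 to 1.40, *Myh7* from -0.046 to 1.68, *Myh7b* from 0.07 to 1.28 and *Myh8* from -0.17 to -0.07. The causes were not tested. With 1 surrogate variable, 1 of the 8 (*Myh4*) had an unadjusted p under 0.05, as had 9.11% of all genes tested. The list medians also moved. That of the slow genes was 0.27 with limma-voom, 0.03 with 1 surrogate variable and 0.37 with the *Xist* covariate. With 1 surrogate variable that of the fast genes was 0.13, that of folding and turnover genes 0.07 and that of the other class II myosins -0.06 (0.15 with the *Xist* covariate, 0.03 with limma-voom). That of the regulators was between -0.032 and -5.8e-05 over all 11 settings that kept every mouse, and that of folding and turnover genes was 0.08 with the *Xist* covariate.

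Over all genes, 1 had an adjusted p under 0.05 with edgeR, and with mice left out between 1 and 6 (6 without AHRmko 34). With no filter beyond 1 count in all it was 5. With DESeq2 it depended on a setting that had not been fixed in advance. Default filtering, which was run first, gave 10 of 13935 genes. Filtering tuned at 0.05, run after the default result was known, gave 21 of 10858 genes, and left *Myh6* without an adjusted p. As a share of raw counts in place of RPKM, *Myh8* was at 0.0389% in place of 0.0201% in AHRfl and at 0.0337% in place of 0.0174% in AHRmko mice. *Myh6* has no value where 10 counts are required in every mouse, having 2 counts in AHRfl 13. No paired analysis was possible because the animal numbers do not repeat between genotypes.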
